A study of Homo sapiens with 11 samples.

Results

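The genes described here are 35 genes of glucose breakdown and of the response to low oxygen, measured in stable transfectants of 2 lung adenocarcinoma cell lines, A549 and HCC827. They were chosen by name, each was read through its brightest probe over all arrays, and 34 of the 35 had a probe named through the RefSeq accession on the array, of 20249 genes named in that way. ALDOA was the gene without one. The study asked which RNAs move when TRIM58, a gene of the tripartite-motif E3 ubiquitin ligase family, is put back into these cells. A549 mock and HCC827 mock cells carried the empty pMXs-Neo retroviral vector, and A549 TRIM58-WT and HCC827 TRIM58-WT cells carried the same vector with FLAG-tagged wild-type TRIM58, so that all 4 groups had been infected with a retrovirus and selected with G418. Per the study's methods clones were isolated after selection, and its legends name the A549 transfectants as clones and those of HCC827 as crude transfectants. There were 4 arrays of 3 A549 mock cells (cell 1 was measured on arrays 1-1 and 1-2, which were averaged and counted as 1 replicate), 3 arrays of A549 TRIM58-WT, 2 of HCC827 mock and 2 of HCC827 TRIM58-WT. The labels number the cells but do not say whether the HCC827 numbers are separate cultures, so that p-values measure the spread between these samples, which may be technical.

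Glycolysis turns glucose into pyruvate in a fixed chain of enzymes, and many tumour cells run it fast and export the product as lactate even where oxygen is at hand. When oxygen falls, the prolyl hydroxylases (EGLN genes) no longer mark the hypoxia-inducible factor subunit HIF-1α for breakdown, and HIF-1α with its partner ARNT binds a short DNA element and switches on glucose transporters, glycolytic enzymes, the growth factor VEGFA, the carbonic anhydrase CA9 and genes that clear mitochondria. HIF-1α is controlled mostly at the protein level, which an RNA array does not read. HCC827 carries an activated EGFR, a signal known to act on glucose use.

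All values below are log2 signal, which is the log2 of the processed spot signal minus the 75th percentile of the same array. The percentile itself lay between 56.6 and 125 intensity units, at least 40.1% of the probes on each array were well above background, and no spot was saturated. The 4 HCC827 arrays, A549 mock arrays 1-1 and 2 and A549 TRIM58-WT array 1 were on slide 1, and the other 4 A549 arrays were on slide 2. On the 5 arrays labelled TRIM58-WT the TRIM58 probe stayed at background level (-5.64 to -4.63), and it passed background on 1 array only, a control (A549 mock array 3, at -0.71). Where the probe lies relative to the transfected coding sequence was not analysed here, so the array gives no check of the labels and the groups are named by them. Of 8 epithelial markers, A549 mock arrays had 7 to 8 above background, A549 TRIM58-WT arrays 4 to 5 and HCC827 arrays all 8. None of 4 endothelial markers and at most 1 of 7 fibroblast markers was above background on any array, and the summed fibroblast signal spanned -1.65 to 0.35 in A549 mock, -0.78 to 0.89 in A549 TRIM58-WT and -1.95 to -1.66 in HCC827. Of 6 alveolar and lung lineage markers 1 to 5 were above background, and of 4 leukocyte markers 1 to 2. The fibroblast marker above background was LUM, a matrix proteoglycan, on A549 mock arrays 1-1, 1-2 and 2 and COL1A1, a collagen gene, on all 3 A549 TRIM58-WT arrays and on HCC827 mock array 1. The part of these markers in the results below was not tested.

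The core of the element that HIF-1 binds reads ACGTG or GCGTG on either strand. In the 250 bases before each annotated start in the RefSeq table of GRCh38.p14, which held 31 of the 35 genes (not SLC2A3, VEGFA, NDRG1 and BNIP3L), 27 genes (87.1%) had either run of letters in at least 1 window, against 12945 of 27305 genes (47.4%) in the whole table. ACGTG alone was found for 19 genes (61.3%) against 21.7% of all genes. Counted by window, of which genes with several starts have several, the shares were 36 of 59 windows (61.0%) against 43.2% for either run of letters and 37.3% against 18.5% for ACGTG. The 35 genes were chosen by name as genes of glucose breakdown and of the response to low oxygen, so that their higher share is not an independent result. Both runs of letters contain CG, and the windows compared were not matched for base content. A match says only that the letters are there. The 6 windows printed are those of 4 genes whose levels set the 2 lines apart (HK2, PDK1, CA9, BNIP3), of EGLN1, the gene with the smallest adjusted p in A549, and of DDIT4, the gene with the smallest adjusted p in HCC827. Each runs 5′ to 3′ on the gene's strand and ends at the base before the start, and capitals mark ACGTG and GCGTG or their reverse complements CACGT and CACGC, overlapping where CACGTG reads the same on both strands.
HK2, first of 2 windows, plus strand, chr2:74833877-74834126: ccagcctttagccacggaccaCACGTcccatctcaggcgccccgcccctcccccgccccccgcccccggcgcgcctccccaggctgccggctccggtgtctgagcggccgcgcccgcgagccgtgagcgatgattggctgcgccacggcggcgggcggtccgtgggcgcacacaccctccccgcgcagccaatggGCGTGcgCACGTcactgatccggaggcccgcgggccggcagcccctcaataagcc
PDK1, second of 2 windows, plus strand, chr2:172555840-172556089: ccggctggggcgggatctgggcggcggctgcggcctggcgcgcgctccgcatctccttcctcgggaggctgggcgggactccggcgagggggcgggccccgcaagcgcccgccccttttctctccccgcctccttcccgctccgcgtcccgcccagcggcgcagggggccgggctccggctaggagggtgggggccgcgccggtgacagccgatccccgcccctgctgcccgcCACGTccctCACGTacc
CA9, plus strand, chr9:35673678-35673927: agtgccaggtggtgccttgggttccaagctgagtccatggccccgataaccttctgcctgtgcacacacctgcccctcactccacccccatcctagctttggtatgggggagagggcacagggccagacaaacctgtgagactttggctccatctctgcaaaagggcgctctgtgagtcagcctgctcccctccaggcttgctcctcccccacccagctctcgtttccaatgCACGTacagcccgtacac
BNIP3, minus strand, chr10:131981924-131982173: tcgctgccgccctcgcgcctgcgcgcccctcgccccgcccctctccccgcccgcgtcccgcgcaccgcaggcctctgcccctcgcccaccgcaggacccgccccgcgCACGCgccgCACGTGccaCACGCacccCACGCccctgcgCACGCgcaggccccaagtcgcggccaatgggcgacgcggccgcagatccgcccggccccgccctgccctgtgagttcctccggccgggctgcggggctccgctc
EGLN1, minus strand, chr1:231422288-231422537: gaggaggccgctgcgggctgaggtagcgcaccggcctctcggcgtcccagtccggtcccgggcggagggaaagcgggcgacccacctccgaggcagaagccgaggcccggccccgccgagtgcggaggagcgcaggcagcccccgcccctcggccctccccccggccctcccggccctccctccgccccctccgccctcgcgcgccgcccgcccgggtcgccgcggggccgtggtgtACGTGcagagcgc
DDIT4, plus strand, chr10:72273674-72273923: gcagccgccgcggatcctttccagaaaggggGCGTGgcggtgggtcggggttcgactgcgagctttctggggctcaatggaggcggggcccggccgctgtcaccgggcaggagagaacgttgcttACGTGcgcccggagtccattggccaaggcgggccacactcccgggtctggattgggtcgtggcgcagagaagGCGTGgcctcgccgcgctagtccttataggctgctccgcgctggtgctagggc
CA9 and EGLN1 each held 1 match, beginning at bases -18 and -13 counted from the start, and the PDK1 window held 2, beginning at -17 and -8. BNIP3 held 6 matches beginning between bases -143 and -104, of which 4 were GCGTG. SLC2A1, PGAM1, PKM and EGLN3 held no match in any of their windows.

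**Figure D1:**
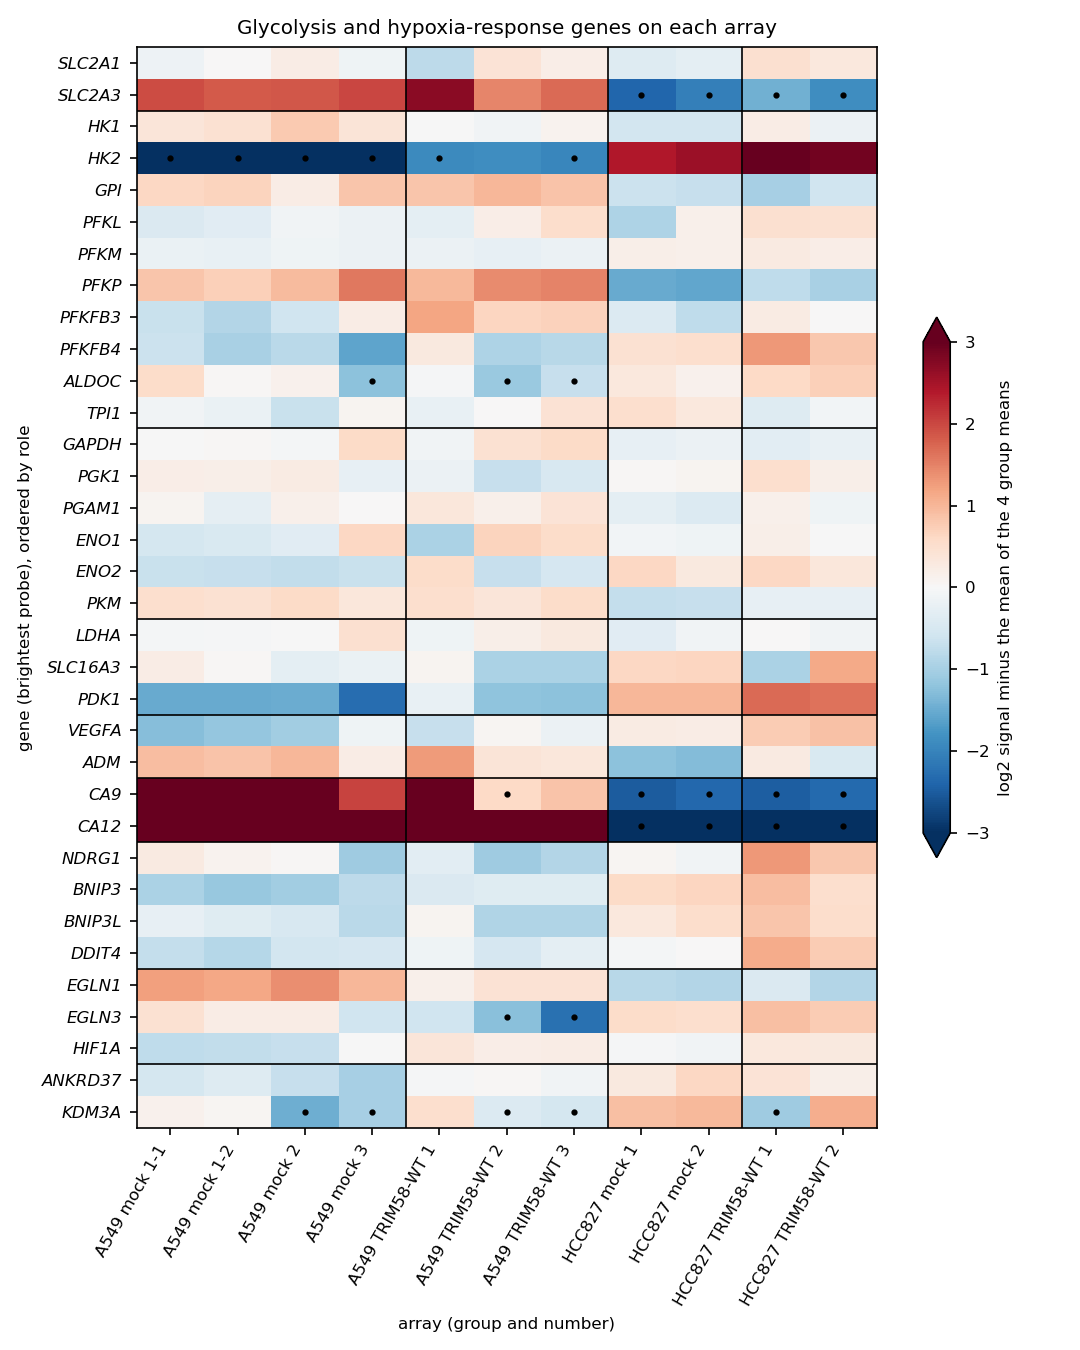
Log2 signal of the 34 genes (vertical, ordered by role) on each of the 11 arrays (horizontal), as colour from the mean of the 4 group means of the gene, with a dot where the probe was not well above background and the colour scale ending at 3 in both directions. HK2 is low on the A549 arrays and high on the HCC827 arrays, whereas CA9, CA12 and SLC2A3 are high in A549 and below background on every HCC827 array.

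The clearest differences among these genes were between the 2 mock lines, before any TRIM58-WT array is considered. Of the 34 genes, 16 were called between HCC827 mock and A549 mock, where called means a limma adjusted p under 0.05 and a change of at least 2-fold; over all 12388 named genes tested in this comparison 31.9% were called, so the genes' share (7 higher in HCC827 and 9 lower) stands beside 16.4% higher and 15.5% lower over all genes. Among the called genes HK2, SLC2A3, CA9 and CA12 were not above background in 1 of the mock lines. KDM3A was above background on only 2 of the 4 A549 mock arrays. Their differences therefore set signal against readings at background. Of the 28 genes above background on every array of both groups, 11 were called, beside 24.8% of all genes filtered in that way. The median difference, HCC827 mock minus A549 mock, was 0.13 over the 34 genes and 0.06 over all genes, with 17 of the 34 above 0. HCC827 mock cells had high HK2, PDK1 and BNIP3, whereas A549 mock cells had high CA12, CA9, SLC2A3, PFKP and EGLN1.

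At the entry of glucose SLC2A3 and HK2 were each measurable in 1 mock line, and SLC2A1 and HK1 in both. SLC2A3, the high-affinity transporter GLUT3, read -1.10 and -1.22 on A549 mock arrays 1-1 and 1-2, -1.20 on array 2 and -1.06 on array 3, and was not above background in HCC827 (-5.44 and -5.11 in mock). It was at least 4.27-fold lower in HCC827 mock (adjusted p = 0.000120), where "at least" sets the bright group's mean against the lowest signal above background on each dim array. Probes brighter than that lowest signal can still fail the background flag. On HCC827 mock array 1 SFTPB failed at -2.61 while COL1A1 passed at -2.77. All folds given as "at least" are therefore nominal bounds and not strict minima. SLC2A1, the basal transporter GLUT1, differed by -0.35 ± 0.18 (standard error, SE; adjusted p = 0.172). HK2, the inducible hexokinase that sits on mitochondria and traps glucose as its phosphate, was not above background on any of the 4 A549 mock arrays (-4.29 to -3.21) and read 2.21 and 2.37 in HCC827 mock. The groups lie far apart, and HK2 was at least 36.2-fold higher in HCC827 mock (adjusted p = 0.000179). HK1, the housekeeping hexokinase, went the other way, with 2.86, 2.96, 3.28 and 2.89 on A549 mock arrays 1-1, 1-2, 2 and 3 and 1.93 on both HCC827 mock arrays. Its difference was -1.10 ± 0.19 (SE; adjusted p = 0.00848).

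Phosphofructokinase commits the sugar to glycolysis, and of its 3 subunit genes only the platelet form PFKP was called. PFKP read 6.73, 6.62, 6.85 and 7.48 in A549 mock and 4.40 and 4.34 in HCC827 mock, with no overlap and a difference of -2.64 ± 0.28 (SE; adjusted p = 0.00166), and its second probe gave -2.08. The liver form PFKL differed by -0.17 ± 0.35 and the muscle form PFKM by 0.33 ± 0.15, neither past the test. PFKFB4, which makes and removes the activator fructose 2,6-bisphosphate, was higher in HCC827 by 1.55 ± 0.29 (adjusted p = 0.0106), while PFKFB3 of the same family differed by -0.21 ± 0.35. GPI, which turns glucose 6-phosphate into fructose 6-phosphate, was lower in HCC827, with 7.56 ± 0.32 (SD, n = 3) in A549 mock and 6.34 ± 0.04 (SD, n = 2) in HCC827 mock and a difference of -1.22 ± 0.23 (SE; adjusted p = 0.0110 in the limma fit).

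In the lower part of the chain 2 of 6 genes were called, 1 in each direction. ENO2, the neuronal enolase, was higher in HCC827 mock by 1.16 ± 0.17 (adjusted p = 0.00497), with 0.05 to 0.12 on the A549 mock arrays and 1.41 and 1.10 in HCC827. PKM, pyruvate kinase, was the lower one, at 7.25 to 7.48 on the A549 mock arrays against 6.18 and 6.21 (difference -1.17 ± 0.16, adjusted p = 0.00384). GAPDH, PGK1, PGAM1, ENO1 and LDHA did not pass the test, with differences between -0.38 and 0.00. Past pyruvate, PDK1, the kinase that shuts pyruvate dehydrogenase and keeps pyruvate out of mitochondria, read -1.06, -1.08, -1.04 and -1.85 on the A549 mock arrays and 1.43 and 1.44 in HCC827 mock. That is a difference of 2.76 ± 0.30 (adjusted p = 0.00175). SLC16A3, the lactate exporter MCT4, was higher by 0.75 ± 0.19 (adjusted p = 0.0296), under the 2-fold that a call needs.

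Among the hypoxia targets the carbonic anhydrases, enzymes that turn the carbon dioxide of fast metabolism into bicarbonate and protons at the cell surface, gave the widest gap. CA12 read 3.65, 3.60, 3.64 and 3.18 in A549 mock and was not above background on any HCC827 array (-5.24 and -5.09 in mock), at least 105-fold lower (adjusted p = 4.24e-05). CA9 read 0.95, 0.99, 0.48 and -0.80 in A549 mock and -5.31 and -5.19, not above background, in HCC827 mock, at least 10.9-fold lower (adjusted p = 0.00129). So neither surface carbonic anhydrase was measurable in HCC827. ADM, the vasodilator adrenomedullin, was also lower in HCC827, at 2.03 and 1.96 against 4.19, 4.13, 4.27 and 3.48 (difference -1.98 ± 0.28, adjusted p = 0.00442). BNIP3, a mitophagy receptor on the outer mitochondrial membrane, was higher, at 5.55 and 5.63 against 3.84 to 4.19 (1.57 ± 0.17, adjusted p = 0.00178). ANKRD37, an ankyrin-repeat protein, was higher by 1.18 ± 0.23 (adjusted p = 0.0127) and KDM3A, a histone H3 lysine 9 demethylase, by 1.71 ± 0.47 (adjusted p = 0.0361), though KDM3A was above background on only 2 of the 4 A549 mock arrays, both of cell 1. EGLN1 (PHD2), the main oxygen sensor that marks HIF-1α, was lower in HCC827, at 2.28 and 2.24 against 4.34, 4.28, 4.51 and 4.12 (difference -2.05 ± 0.18, adjusted p = 0.000979). HIF1A itself differed by 0.41 ± 0.27 (adjusted p = 0.281), and VEGFA, the angiogenic growth factor, by 1.03 ± 0.36 (adjusted p = 0.0715).

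**Figure D2:**
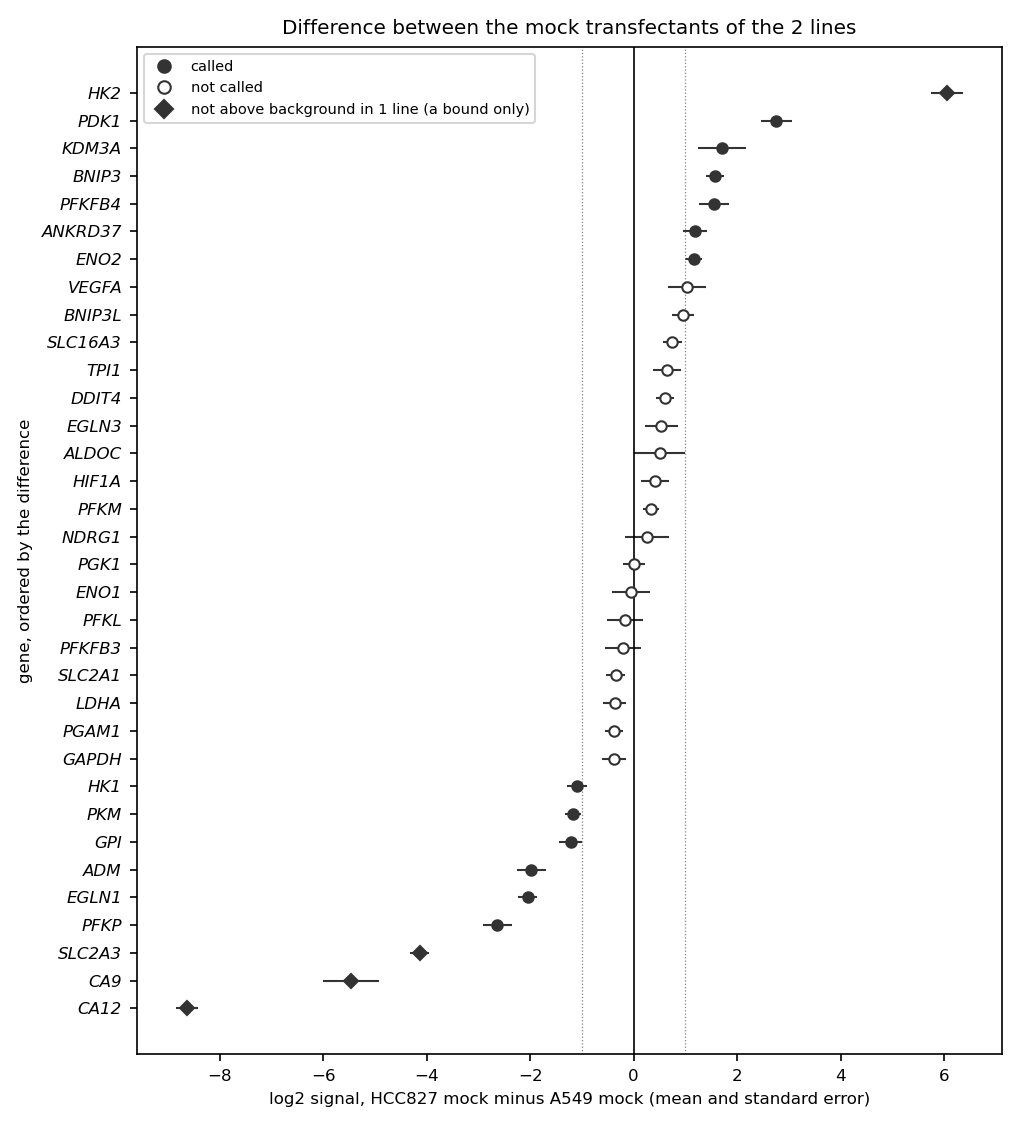
Difference in log2 signal between HCC827 mock (n = 2) and A549 mock (n = 3) for the 34 genes, with the SE of the fit as bars and dotted lines at 2-fold; filled symbols are called, and diamonds mark the 4 genes below background in 1 line, whose fitted difference is not a fold. PDK1 stands at 2.76, PFKP at -2.64 and EGLN1 at -2.05, and the 18 open symbols lie between -0.38 and 1.03.

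All HCC827 arrays were on slide 1, and against the A549 mock arrays of that slide alone PDK1 differed by 2.49, PFKP by -2.43, ADM by -2.24 and EGLN1 by -2.16. The count of 16 fell to 9 without HCC827 mock replicate 1, where the lone array left was assumed to vary like those of A549 mock, and to 9 with normexp background correction.

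In A549, no gene of the 31 tested was called between TRIM58-WT and mock, where 7.93% of 11185 genes were called over the whole array. HK2, ALDOC and KDM3A were left out because neither group had the probe above background on every array. Without adjustment 9 of the 31 genes (29.0%) had p under 0.05 (5 higher and 4 lower in TRIM58-WT), beside 27.7% of all genes. The median difference, TRIM58-WT minus mock, was 0.14, and 0.03 over all genes. Differences ran from -1.35 to 1.23. In 6 genes (19.4%) every TRIM58-WT replicate lay above every mock replicate, and in 3 (9.68%) below, beside 16.9% and 17.0% of all genes. In the same comparison 4 of 7 epithelial markers tested fell (KRT19, EPCAM, CLDN4 and KRT8, list median -2.33), and their part in these values was not tested.

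Among the glycolytic genes the widest difference was that of PFKFB3, which makes the phosphofructokinase activator. It read 1.80, 1.59, 1.88 and 2.69 on A549 mock arrays 1-1, 1-2, 2 and 3 and 3.66, 3.11 and 3.17 on TRIM58-WT arrays 1, 2 and 3. The TRIM58-WT values were all above the mock values, but mock 3 lay closer to them than the other mocks did, and the difference of 1.23 ± 0.31 (SE) had an adjusted p of 0.0623 (1.18 by its second probe). HK1 was at 3.03 ± 0.22 (SD, n = 3) in mock and 2.49 ± 0.11 (SD, n = 3) in TRIM58-WT, with adjusted p = 0.119. HK2 was not above background on any mock array and was so on 1 of 3 TRIM58-WT arrays, at -2.05, so no fold is given. PDK1 was 0.88 ± 0.36 higher (adjusted p = 0.193), with 0.21, -0.77 and -0.78 in TRIM58-WT and -1.85 to -1.04 in mock. The other glycolytic genes differed by -0.51 (PGK1) to 0.58 (PFKFB4), and PKM by 0.00 ± 0.15.

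HIF1A and its sensors stood on opposite sides of 0 in A549. HIF1A read 2.02, 2.04, 2.10 and 2.78 in mock against 3.14, 2.98 and 3.00 in TRIM58-WT, 0.74 ± 0.24 higher (adjusted p = 0.112), with 0.65 by its second probe. EGLN1 read 4.34, 4.28, 4.51 and 4.12 in mock against 3.27, 3.54 and 3.54 in TRIM58-WT. Here the groups were apart by more than their spread, with a difference of -0.86 ± 0.18 and an adjusted p of 0.0369, the only one of the 31 under 0.05, but it was less than 2-fold and so not called. EGLN3 (PHD3), the hydroxylase that HIF itself induces, read 0.15, -0.08, -0.10 and -0.90 in mock against -0.90, -1.56 and -2.54 in TRIM58-WT, the last 2 not above background. Its difference of -1.35 ± 0.46 had an adjusted p of 0.130.

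The targets of HIF did not share a direction in A549. BNIP3 read 4.03, 3.84, 3.94 and 4.19 in mock against 4.55, 4.62 and 4.62 in TRIM58-WT (0.58 ± 0.15, adjusted p = 0.0718). ANKRD37 was 0.68 ± 0.19 higher (adjusted p = 0.0805). CA12 differed by -0.92 ± 0.34, with 3.48 ± 0.26 (SD, n = 3) in mock and 2.56 ± 0.63 (SD, n = 3) in TRIM58-WT (limma adjusted p = 0.153). DDIT4, an inhibitor of mTORC1 that stress induces, differed by 0.31 ± 0.18, ADM by -0.04 ± 0.34 and NDRG1, a stress-induced growth suppressor, by -0.46 ± 0.39. VEGFA differed by 0.52 ± 0.35, and its second probe gave -0.25.

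**Figure D3:**
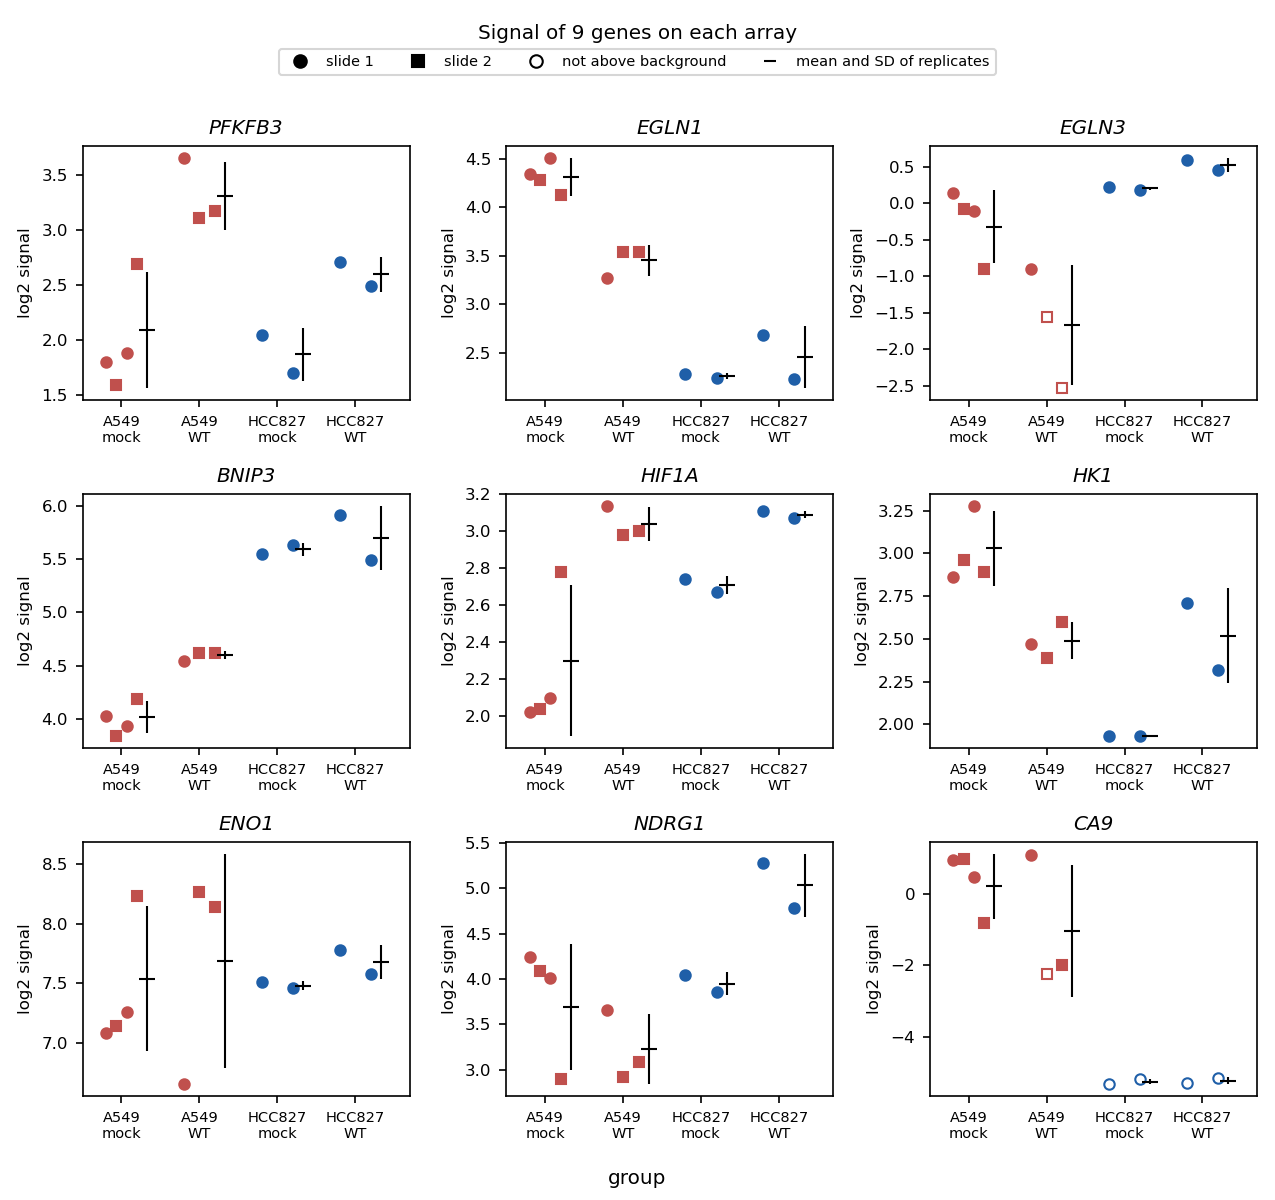
Log2 signal of 9 genes on each array by group (WT, TRIM58-WT), with circles for slide 1, squares for slide 2, open symbols for probes not above background and black bars for the mean and SD of replicates (A549 n = 3, HCC827 n = 2). In EGLN1 the A549 TRIM58-WT arrays (3.27 to 3.54) lie below every A549 mock array, whereas in ENO1 A549 mock 3 (8.23) lies with TRIM58-WT 2 and 3.

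In several genes single A549 arrays of 1 group differed by more than the group means did. ENO1, the main enolase, read 7.08, 7.14 and 7.26 on mock arrays 1-1, 1-2 and 2 but 8.23 on mock 3, and 6.65, 8.27 and 8.14 on TRIM58-WT arrays 1, 2 and 3. NDRG1 read 4.24, 4.09, 4.01 and 2.90 in mock against 3.66, 2.92 and 3.09 in TRIM58-WT. In both genes mock 3 lies with TRIM58-WT 2 and 3. CA9 read 0.95, 0.99, 0.48 and -0.80 in mock against 1.10, -2.23 and -1.98 in TRIM58-WT, where TRIM58-WT 1 lies with the mocks. Only 2 of these 3 TRIM58-WT arrays had CA9 above background. GAPDH, often used to scale RNA levels, read 8.38, 8.43, 8.34 and 8.96 in mock against 8.29, 8.86 and 8.97 in TRIM58-WT. ENO2 stood apart in 1 array, with 1.34 on TRIM58-WT 1 and 0.05 to 0.30 on the other 6 A549 arrays.

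Over the 31 genes the SD of the difference between 2 arrays was 0.13 for mock 1-1 and 1-2, 0.25 for TRIM58-WT 2 and 3 and 0.92 for TRIM58-WT 1 and 2. Over all genes tested these 3 values were 0.23, 0.22 and 0.80. There TRIM58-WT 2 and 3 were as alike as the 2 arrays of mock cell 1, yet the main fit counts them as 2 replicates. Over the 31 genes mock 3 differed from TRIM58-WT 2 with an SD of 0.55 and from TRIM58-WT 3 with 0.58, against 0.69, 0.67 and 0.62 from mock 1-1, 1-2 and 2. Over all genes tested these 5 values of mock 3 were 0.84, 0.83, 0.72, 0.69 and 0.78, so that there mock 3 was nearer to the other mocks. Mock 3, TRIM58-WT 2 and TRIM58-WT 3 also had the lowest 75th percentiles (60.3, 62.5 and 56.6 intensity units, against 90.5 to 103 on the other A549 arrays), and all 3 were on slide 2, as was mock 1-2. The part of signal strength and slide in these values was not tested. The median SD over replicates was 0.28 in A549 mock and 0.36 in A549 TRIM58-WT, against 0.24 and 0.27 over all genes.

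Which gene was called in A549 changed with the array left out or the block used. Without mock replicate 3 PFKFB3 was called (1.53, adjusted p = 0.0153), and without TRIM58-WT replicate 1 CA12 was called (-1.28, adjusted p = 0.0241). Within slide 1 PFKFB3 differed by 1.83 and within slide 2 by 1.00, and EGLN1 by -1.15 and -0.66, while ENO1 differed by -0.53 and 0.52.

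In HCC827, too, no gene of the 31 tested was called between TRIM58-WT and mock, where 1.07% of 12182 genes were called. SLC2A3, CA9 and CA12 were below background in both groups and not tested. The values nonetheless leaned one way, with 25 of the 31 genes above 0 beside 50.9% of all genes, and with a median difference of 0.37 beside 0.01. Every TRIM58-WT replicate lay above every mock replicate in 22 genes (71.0%), beside 30.6% of all genes, and below in 1, TPI1 (3.23%, beside 28.5%). Without adjustment 15 of the 31 genes (48.4%) had p under 0.05, 14 of them higher in TRIM58-WT, beside 21.8% of all genes. The epithelial markers leaned the same way in this comparison, with 8 of 8 above 0, a median of 0.35 and none called, and their part in these values was not tested. Genes of one pathway are not independent of each other, and with 2 replicates a group none of the 31 passed adjustment over the array (smallest adjusted p 0.0977).

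The smallest adjusted p was that of DDIT4, the mTORC1 inhibitor whose promoter is printed above, with 5.83 and 5.91 in mock and a mean of 6.83 ± 0.25 (SD, n = 2) in TRIM58-WT, its lower replicate at 6.65, a difference of 0.96 ± 0.17 (SE; adjusted p = 0.0977). ADM read 2.03 and 1.96 in mock against 3.54 and 2.81 with TRIM58-WT (1.18 ± 0.28, adjusted p = 0.136). NDRG1 read 4.04 and 3.86 in mock against 5.28 and 4.78 with TRIM58-WT (1.08 ± 0.22, adjusted p = 0.111). In these 3 stress and secreted targets both TRIM58-WT values were above both mock values. VEGFA, at 2.24 and 2.23 in mock, read 2.77 and 2.89 in TRIM58-WT (0.59 ± 0.13, adjusted p = 0.126), with 0.42 by its second probe. BNIP3 and ANKRD37 differed by only 0.11 ± 0.19 and -0.17 ± 0.19, with overlapping replicates.

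Glucose entry and its control gave smaller differences in the same direction. SLC2A1 read 3.57 and 3.66 in mock against 4.44 and 4.28 with TRIM58-WT (0.74 ± 0.14, adjusted p = 0.103). PDK1 read 1.43 and 1.44 in mock against 2.14 and 2.07 with TRIM58-WT (0.67 ± 0.13, adjusted p = 0.103). PFKP read 4.40 and 4.34 in mock against 5.15 and 4.94 with TRIM58-WT (0.68 ± 0.15, adjusted p = 0.121). The pairs do not overlap in any of these 3 genes. PFKL differed by 0.85 ± 0.38 (adjusted p = 0.308), with its 2 mock arrays far apart at 0.33 and 1.41. HK1 differed by 0.59 ± 0.18, HK2 by 0.54 ± 0.16, PFKFB3 by 0.73 ± 0.19, PFKFB4 by 0.57 ± 0.20, ALDOC, the brain aldolase, by 0.43 ± 0.14 and PKM by 0.46 ± 0.13, with adjusted p from 0.151 (PFKFB3) to 0.234 (PFKFB4).

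Among the abundant enzymes of the chain the differences were smaller or below 0. TPI1, triose-phosphate isomerase, read 7.97 and 7.78 in mock against 7.08 and 7.37 with TRIM58-WT, a difference of -0.65 ± 0.17 (adjusted p = 0.156). GPI differed by -0.14 ± 0.18 and GAPDH by -0.07 ± 0.13. PGK1, PGAM1, ENO1 and LDHA differed by 0.19 to 0.37, each with both TRIM58-WT values above both mock values, and ENO2 by 0.02 ± 0.19. SLC16A3 could not be read as a group, with 6.42 and 6.43 in mock but 4.85 and 6.92 in TRIM58-WT, and KDM3A likewise read -3.70, not above background, and -1.53 in TRIM58-WT beside -1.73 and -1.65 in mock. HIF1A was 0.38 ± 0.13 higher (adjusted p = 0.213), with 0.85 by its second probe (adjusted p = 0.343). EGLN1 differed by 0.19 ± 0.20 and EGLN3 by 0.32 ± 0.13.

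**Figure D4:**
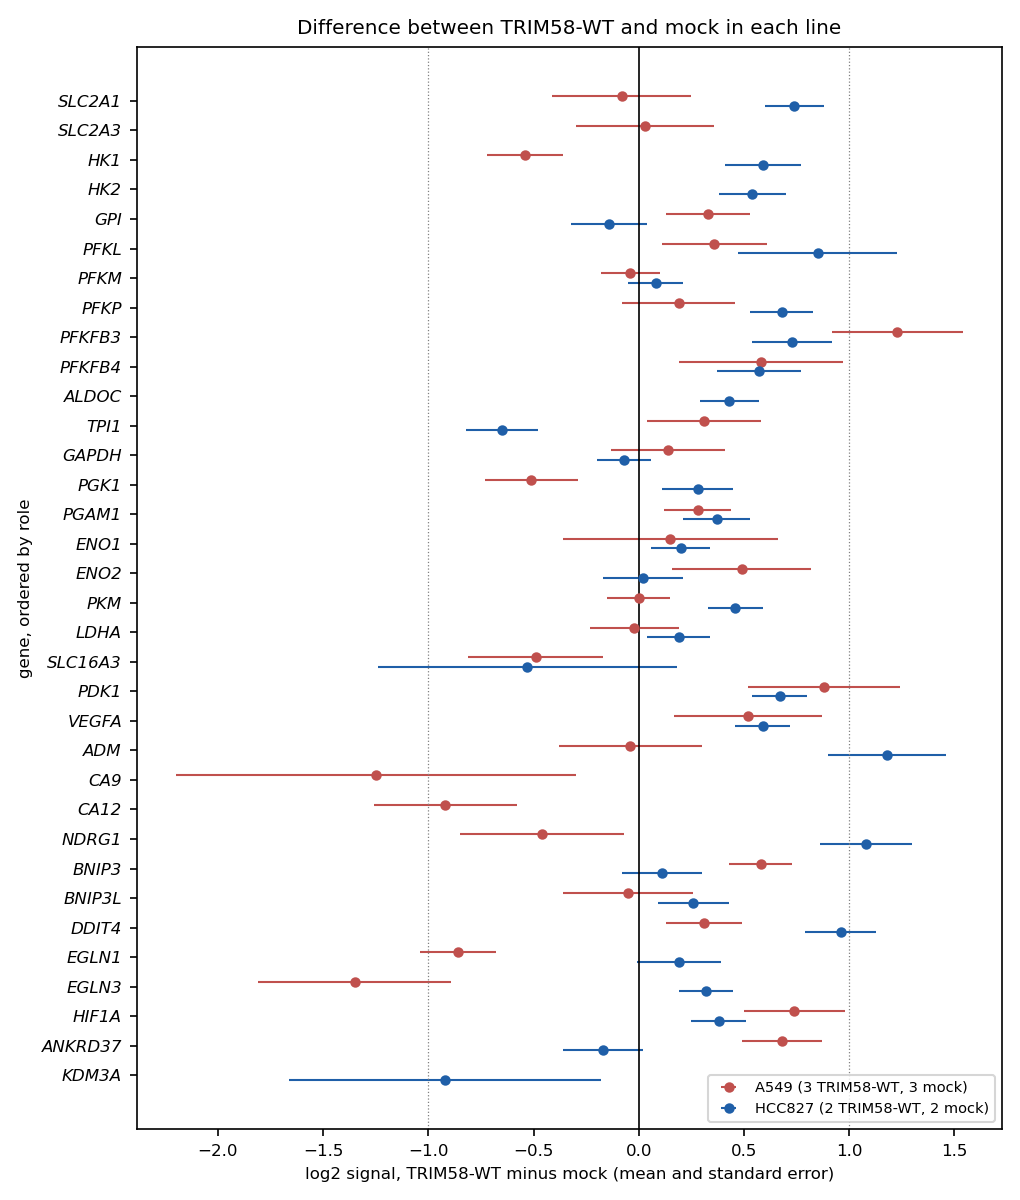
Difference in log2 signal between TRIM58-WT and mock with the SE of the fit as bars, in A549 (red, 31 genes) and HCC827 (blue, 31 genes), with dotted lines at 2-fold. None is called in either line, most blue points (25 of 31) lie above 0, and the red points spread from -1.35 (EGLN3) to 1.23 (PFKFB3).

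Mock replicates of HCC827 differed by a median SD of 0.05 over these genes, below the 0.10 of all genes, and TRIM58-WT replicates by 0.18 against 0.13. Without TRIM58-WT replicate 2 the count of genes called was 1 (KDM3A, which rests on the array below background, with the lone array assumed to vary like those of mock), and without any other replicate it was 0.

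Set against each other in 1 fit, the change with TRIM58-WT differed between the lines for none of the 34 genes at an adjusted p under 0.05, where 4.61% of 12830 genes did. Without adjustment 10 of the 34 genes had p under 0.05, beside 20.9% of all genes. In these counts HK2 in A549 and SLC2A3, CA9 and CA12 in HCC827 have no measured change, since they were below background on all or nearly all arrays of that line. Of the 27 genes above background on every array, 0 passed and 9 had an unadjusted p under 0.05. The median of HCC827 change minus A549 change was 0.16, and -0.02 over all genes. HK1 came closest, with a change of -0.54 in A549 and 0.59 in HCC827 and every replicate on that side, and the changes differed by 1.13 ± 0.27 (SE; adjusted p = 0.0624). EGLN1 followed, with -0.86 in A549 and 0.19 in HCC827 (1.05 ± 0.28, adjusted p = 0.0876). EGLN3 had the widest gap, 1.67 ± 0.64 (adjusted p = 0.210), and NDRG1 1.55 ± 0.56 (adjusted p = 0.185). EGLN3 was above background on only 1 of the 3 A549 TRIM58-WT arrays, so that its gap is not a measured size. By their brightest probes PFKFB3, PDK1, VEGFA and HIF1A had fitted changes above 0 in both lines, none past the test in either, with gaps of -0.50 ± 0.45, -0.21 ± 0.50, 0.06 ± 0.48 and -0.36 ± 0.33. The second probe of VEGFA gave -0.25 in A549 and a gap of 0.68. Second probes gave gaps of 0.21 for HIF1A, the other sign, and -0.71 for PFKFB3, none past the test. Without A549 mock replicate 3, HK1, EGLN1 and NDRG1 did pass, and with slide as a block or with mock arrays 1-1 and 1-2 as separate replicates HK1 and EGLN1 passed.

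Some genes of the same pathways outside the 35 were called in A549, 9 of 83 tested (10.8%, beside 7.93% of all genes). The lists were chosen with earlier results of these data known, so that the shares given here are a description only. Of 31 other hypoxia-induced genes tested, 2 rose and 5 fell with TRIM58-WT (22.6% in all), and the median of the list was -0.14. LOXL2, a lysyl oxidase that crosslinks collagen, rose by 1.72 ± 0.33 (SE; adjusted p = 0.0287), and TMEM158, a membrane protein, rose by 1.62 ± 0.32 (adjusted p = 0.0311). PPP1R3C, which directs a phosphatase to glycogen, read from 2.68 to 4.06 in mock against 2.02, 1.10 and 0.97 in TRIM58-WT, and fell by 2.19 on the log2 scale (SE 0.45, adjusted p = 0.0356). ANGPTL4, a lipoprotein lipase inhibitor, read 2.25, 2.35, 2.42 and 2.84 in mock against 0.79, 0.50 and 0.48 in TRIM58-WT and fell by 1.93 on the log2 scale (SE 0.21, adjusted p = 0.00492). The others that fell were RAB20, HMOX1 and EDN1, which take part in vesicle traffic, haem breakdown and vasoconstriction. RAB20 was not above background on TRIM58-WT arrays 2 and 3 (-2.61 and -3.27), so that its fall is not a measured size. The other hypoxia-induced genes that were called thus split by direction rather than rising together.

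PDK4 is a starvation-induced relative of PDK1. It read 4.38, 4.32, 4.57 and 3.16 on A549 mock arrays 1-1, 1-2, 2 and 3 and -1.86, -4.46 and -4.55 on TRIM58-WT arrays 1, 2 and 3, the last 2 not above background, and fell by 7.66 on the log2 scale in the fit (SE 0.79, adjusted p = 0.00443), a value that takes in those 2 readings at background and is not a fold. PDK1 in the same cells was 0.88 higher and did not pass the test. PDK4 was the only one of 12 genes of pyruvate entry to mitochondria that was called in A549 (8.33%), and the list's median was -0.39. Of 15 HIF subunits and regulators 1 was called (6.67%, like the former near the 7.93% of all genes), ARNT2, a partner subunit of HIF, which rose by 1.75 ± 0.21 (adjusted p = 0.00698). None of 15 other glucose transport, glycolysis and lactate genes, 7 pentose phosphate genes and 3 gluconeogenesis genes was called in A549. In HCC827 none of the 15, 12, 32, 15, 7 and 4 genes tested on these 6 lists was called, and the median of the other hypoxia-induced genes was 0.33, with 25 of 32 above 0.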

How the data were processed

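RNA of 11 samples was labelled with Cy3 and hybridised to 1-colour Agilent human expression arrays. The authors deposited the spot intensity values of each array, and per the file headers Feature Extraction 11.5.1.1 subtracted the background and applied no scaling between arrays (the submitters' processing notes name Agilent Feature Extraction 10.7). The authors' own deposited log2 table, centred on each probe, was an alternative. Here control and outlier spots were left out, spots of a probe averaged, and each array's 75th percentile subtracted from the log2 processed signal. Of 42405 probes 27241 were named through RefSeq accessions. A probe was tested if all arrays of 1 or more of the compared groups had it well above background, with limma 3.58.1 in R 4.3.3, with Benjamini-Hochberg adjustment over all of them (called: adjusted p under 0.05 and at least 2-fold, or adjusted p alone for the difference between lines). A549 mock arrays 1-1 and 1-2, of the same control cell, were averaged. The number of arrays limits the precision. The fits were tested on simulated data. The 35 genes and the lists (6 pathway lists, 5 marker lists) were chosen with earlier results of these data known. All 35 genes are named, and from each pathway list the 2 called genes with the largest rise and the 2 with the largest fall in a comparison, except 1 that is not reported here. Alternatives covered scaling, background, filters, tests, blocks and left-out replicates. Plots were made with matplotlib 3.10.9 in Python 3.11.15.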

Additional observations from a re-analysis of the deposited data

Results flagged for a closer look

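None of the 34 genes had a change with TRIM58-WT that differed between the lines at an adjusted p under 0.05, but 7 of 88 genes tested on the accompanying pathway lists did (7.95%, beside 4.61% of all genes), in 1 limma fit over all 4 groups with HCC827 change minus A549 change given as log2. The lists were chosen with earlier results of these data known, so that this share is a description only. It counts PDK4 and FBP1, whose gaps rest in part on readings at background. PDK4, which restrains pyruvate dehydrogenase in fasting, had a gap of 6.20 ± 1.14 (SE; adjusted p = 0.0239), with -7.66 in A549 and -1.45 in HCC827, but 2 of the 3 A549 TRIM58-WT arrays were not above background, so the gap is not a measured size. For PPP1R3C the gap was 3.16 ± 0.65 (adjusted p = 0.0371), with -2.19 in A549 and 0.97 in HCC827. EPAS1, which encodes HIF-2α, had a gap of 2.23 ± 0.43 (adjusted p = 0.0276), and read 5.93, 5.91, 5.94 and 6.34 in A549 mock, 5.53, 4.62 and 4.57 in A549 TRIM58-WT, 4.08 on both HCC827 mock arrays and 5.28 and 5.03 in HCC827 TRIM58-WT. Within each line EPAS1 did not pass (-1.16, adjusted p = 0.0675 in A549, and 1.07, adjusted p = 0.0702 in HCC827). ANGPTL4 had a gap of 1.75 ± 0.35 (adjusted p = 0.0337), HKDC1, a hexokinase-domain gene, 1.35 ± 0.24 (adjusted p = 0.0217) and EDN1, endothelin 1, 1.29 ± 0.22 (adjusted p = 0.0191). FBP1, fructose-1,6-bisphosphatase of gluconeogenesis, had a gap of -3.12 ± 0.54 (adjusted p = 0.0196), but it was not above background on any A549 array or on the HCC827 TRIM58-WT arrays. In HCC827 alone the fall of FBP1 with TRIM58-WT was not called (limma adjusted p = 0.0656). Its 3.66-fold is a nominal bound and not a strict minimum. With 2 or 3 replicates a group, no single replicate was tested for standing apart.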

How the results depend on the processing

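Counts of the 34 genes called depended on a few settings. In A549 the count of 0 became 1 with median scaling (EGLN3), with all 4 groups in 1 fit (PFKFB3), with the replicate block (EGLN3), with mock arrays 1-1 and 1-2 as 2 replicates (PFKFB3) and with adjusted p alone (EGLN1), and 2 with slide as a block (PFKFB3 and EGLN3). The calls of EGLN3 rest in part on readings at background, since it was above background on only 1 of the 3 A549 TRIM58-WT arrays. Leaving out each replicate in turn gave 0 to 1 in A549, 0 to 1 in HCC827, 0 to 3 for the difference between lines and 9 to 17 for the mock lines. The difference between lines became 2 with slide as a block and with mock arrays 1-1 and 1-2 as 2 replicates (HK1 and EGLN1). In that difference normexp turned the sign of 4 of the 34 genes (SLC2A3, HK2, PFKFB4 and PDK1). The widest of these gaps in the main fit was that of HK2, at -1.13, a gene without a measured change in A549. Median scaling turned the sign of 5 gaps (PFKFB4, GAPDH, SLC16A3, PDK1 and HIF1A), none beyond 0.36 in the main fit. Between the mock lines 16 became 9 with normexp, 8 with the methods' Welch test and 11 with the filter on every array. By the Welch test 0 genes were called in either line with TRIM58-WT (5 and 4 with unadjusted p under 0.05). No difference that was called or had an unadjusted p under 0.05 within a line or between the mock lines changed sign. PFKP, PDK1, BNIP3 and EGLN1 stayed called between the mock lines under every alternative run, HK2, CA9 and CA12 under every one that tested them (a filter on every array did not), and the other 9 did not. Same-numbered replicates did not all deviate together in A549 (r = 0.54, -0.45 and 0.53 for replicates 1, 2 and 3), where differently numbered pairs ran from -0.60 to 0.58. In HCC827 r was 0.06 for both numbers, which with 2 replicates a group is 1 value by construction. The replicate block was therefore not the main analysis. It gave 1 call in A549, 0 in HCC827, 0 for the difference between lines and 17 for the mock lines. Median scaling brought the median of all genes in A549 from 0.03 to -0.34 and that of the 31 genes from 0.14 to -0.23, turned the sign of 10 of them, none with a difference beyond 0.36 (SLC2A3, GPI, PFKL, PFKP, TPI1, GAPDH, PGAM1, ENO1, PKM and DDIT4), and gave 0.38 over all genes and 0.56 over these genes for the difference between lines. With A549 TRIM58-WT replicates 2 and 3 averaged, chosen after the data were seen, 0 genes were called in A549 and 0 for the difference between lines. With that 1 replicate fewer, the share of all genes called went from 7.93% to 2.34% in A549. For the difference between lines it went from 4.61% to 2.50%. No slide block could be fitted in HCC827, where all arrays were on slide 1. Where a left-out replicate leaves 1 array in a group, that array was assumed to vary like the other groups. The cause of these changes was not tested. Genes below background on all arrays of a group have only a nominal bound.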

Other observations

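The mock lines also differed in neighbouring routes of glucose. Of 7 pentose phosphate genes tested 3 were lower and 1 was higher in HCC827 mock than in A549 mock, with a median difference of -0.91. PGD, a dehydrogenase of the route, was lower (difference -3.26 ± 0.16, SE; adjusted p = 0.000171), while RPIA, a pentose isomerase, was 2.04 ± 0.21 higher (adjusted p = 0.00150). Of 33 other hypoxia-induced genes 7 were higher, led by AK4 (2.73 ± 0.19, adjusted p = 0.000463) and INSIG2 (2.11 ± 0.20, adjusted p = 0.00120), and 9 were lower, led by PPP1R3C (-5.68 ± 0.46, adjusted p = 0.000677) and EDN1 (-4.62 ± 0.17, adjusted p = 8.02e-05). Of 15 HIF subunits and regulators 2 were higher (OS9 and ELOC) and 4 lower, with ARNT2 at least 8.35-fold lower (adjusted p = 0.000550) and the coactivator CREBBP at -2.32 ± 0.26 (adjusted p = 0.00210). Of 12 pyruvate entry genes 2 were higher (PDP2 and PDK3) and PDK4 was lower (-4.47 ± 0.46, adjusted p = 0.00150). Among 16 other glucose transport, glycolysis and lactate genes 2 were higher (PGM2 and SLC16A7) and 5 lower (led by LDHD and ENO3), and among 4 gluconeogenesis genes FBP1 was higher, at least 2.63-fold (adjusted p = 0.00148), and 2 were lower (PC and G6PC3). These counts stand beside 31.9% of all genes called between the mock lines.

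For 7 of the 34 genes a second probe was tested in all 4 comparisons. BNIP3L, a mitophagy receptor like BNIP3, was called between the mock lines by its second probe (1.40, adjusted p = 0.00986) and not by its brightest (0.95, adjusted p = 0.0185). LDHA differed between the mock lines by -0.37 by one probe and 0.18 by the other, neither past the test.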
